A study of Mus musculus with 4 samples.

Results

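Mitosis and spindle genes were examined as a group of 31 genes of the 32285 in the deposited gene list, and all 31 were found there by symbol. They were chosen for their role in cell division, and they span the kinases that start mitosis, the chromosomal passengers, the kinetochore and its checkpoint, the spindle motors, and the ubiquitin ligase that ends mitosis. The tissue was tumour from C57Bl6 mice aged 6 to 8 weeks, in both groups. Single-cell RNA was sequenced with droplet 10x 3-prime chemistry in 2 libraries labelled Nanocapsule treated and 2 labelled Control, so n = 2 per group throughout. The series title names enzyme nanocapsules and cancer immunotherapy. The tumour line, the nanocapsule's content and dose, and what the control tumours received are not given in the sources used here. Nothing in the labels says that the libraries came from separate animals, so every p-value below measures the spread between libraries.

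Mitosis is driven by cyclin-dependent kinase 1 bound to A- and B-type cyclins, and it ends when the anaphase-promoting complex marks those cyclins for destruction. Most of these genes are transcribed in late S phase and G2 under the control of the DREAM and MuvB complexes, which read a promoter element called the cell cycle genes homology region (CHR), often beside CCAAT boxes that bind NF-Y. Their transcripts are therefore a common measure of which cells in a tumour are dividing, and activated T cells also make them when they expand.

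Promoter windows are shown for 6 of the genes because transcripts of the group varied together from cell to cell, as described below. RefSeq windows on GRCm38.p6, from 250 bases before to 50 bases after each gene start, were at hand for 27 of the 31 genes. The CHR letters TTTGAA, searched on both strands, were present in 20 of the 27 windows (74.1%), against 18.1% of 27025 windows of all genes. The letters CCAAT, also searched on both strands, were present in 24 of the 27 (88.9%), against 37.9% of all windows. Both motifs stood together in 20 of the 27 (74.1%), against 7.12% of all windows. All 20 windows with a CHR held 1 between 100 bases before and 50 bases after the start, where 8.08% of all windows held 1. The lines below give 120 bases before to 30 bases after each start, 5′ to 3′ on the gene's strand, and the capitals mark TTTGAA or its complement TTCAAA, and CCAAT or its complement ATTGG. The motifs can overlap by an A where TTTGAA runs into ATTGG.
Cdk1 (chr10:69352883-69353032, minus strand): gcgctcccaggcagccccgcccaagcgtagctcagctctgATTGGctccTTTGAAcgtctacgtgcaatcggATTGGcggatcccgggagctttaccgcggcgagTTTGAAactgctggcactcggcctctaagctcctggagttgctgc
Ccnb2 (chr9:70421525-70421674, minus strand): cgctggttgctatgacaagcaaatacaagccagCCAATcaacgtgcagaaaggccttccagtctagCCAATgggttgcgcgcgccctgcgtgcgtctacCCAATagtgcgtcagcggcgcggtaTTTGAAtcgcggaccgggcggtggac
Birc5 (chr11:117849117-117849266, plus strand): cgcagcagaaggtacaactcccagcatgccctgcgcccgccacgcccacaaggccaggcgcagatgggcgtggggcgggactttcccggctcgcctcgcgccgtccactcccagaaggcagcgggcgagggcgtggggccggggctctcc
Cenpa (chr5:30666766-30666915, plus strand): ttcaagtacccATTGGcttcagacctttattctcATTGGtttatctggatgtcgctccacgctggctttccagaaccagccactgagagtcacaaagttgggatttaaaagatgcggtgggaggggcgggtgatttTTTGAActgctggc
Ube2c (chr2:164769809-164769958, plus strand): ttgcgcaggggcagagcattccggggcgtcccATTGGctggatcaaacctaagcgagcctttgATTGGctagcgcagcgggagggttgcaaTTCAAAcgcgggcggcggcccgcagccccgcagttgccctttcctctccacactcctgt
Top2a (chr11:99024160-99024309, minus strand): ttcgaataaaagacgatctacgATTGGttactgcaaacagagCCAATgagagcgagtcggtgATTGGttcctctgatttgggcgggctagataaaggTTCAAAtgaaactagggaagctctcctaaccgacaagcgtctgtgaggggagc
In this window Cdk1 has a CHR 71 and another 15 bases before its start, Ccnb2 has 1 that begins 4 bases after it, and Cenpa has 1 that begins 16 bases after it. In Ube2c and Top2a the complement lies 29 and 23 bases before the start. Birc5, which encodes survivin, has neither motif in its whole window. Each match is only a description of these letters.

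The libraries held 98943390 to 140491491 UMIs (unique molecular identifiers, which count captured transcript ends and so do not scale with transcript length). At least 1500 UMIs were required of a cell, which left 9548 cells, and 36 of the 9512 distinct barcodes were cells in more than 1 library. Cells were clustered and named from marker genes. Melanocytic tumour-like cells numbered 1570 and 1051 in Nanocapsule 1 and 2, and 3222 and 1151 in Control 1 and 2. Summed over the class, all 7 pigment cell markers were detected in every library, as they were in macrophage-like cells, at different levels. In tumour-like cells these markers stood at 10900 and 10710 CPM in nanocapsule libraries and 11660 and 10650 CPM in control libraries. In macrophage-like cells they stood at 2737 and 2483 CPM, against 3638 and 1180 CPM. The median depth of tumour-like cells was 59811 and 86001 UMIs in the nanocapsule libraries, against 38140 and 75902 UMIs in the control libraries. Macrophage-like cells numbered 90 and 120, against 143 and 148, T-like cells 37 and 49, against 13 and 63, and B-like cells 43 and 21, against 49 and 44. The labels call the material cancer cells, and these immune classes stand beside the tumour class in it. Clustering used 2000 variable genes, of which 3 were mitosis and spindle genes.

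In melanocytic tumour-like cells the mitotic transcripts were abundant and the nanocapsule and control libraries were close. The summed level of the 31 genes was 2368 and 2591 CPM (UMI counts scaled to a common library total) in Nanocapsule 1 and 2, against 2495 and 2667 CPM in Control 1 and 2. The means were 2479 ± 158 CPM and 2581 ± 121.75 CPM (SD, n = 2 each), a log2 ratio of -0.06, and the gap was smaller than either SD. In this plain CPM (without TMM normalisation), libraries of both groups interleaved, with Nanocapsule 1 lowest and Control 2 highest. The order depended on the scale. Summed over the TMM-normalised values used for single genes below, both nanocapsule libraries lay below both control libraries, with Control 1 highest. In plain CPM the order also changed among cells of 20000 to 100000 UMIs. The nanocapsule libraries were then at 2212 and 2079 CPM and the control libraries at 2513 and 2135 CPM, with a log2 ratio of -0.12.

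All 31 genes passed the count filter in these cells. None passed an adjusted p of 0.05 in edgeR's quasi-likelihood test with Benjamini-Hochberg adjustment, and 0% of the 16195 genes tested passed in either direction. Below an unadjusted p of 0.05 stood 1 of the 31, lower in nanocapsule libraries, where 3.58% of all genes tested stood. DESeq2 likewise called none of the 31, with 2 below an unadjusted p of 0.05, although it called 88 genes in all. The median log2 fold, nanocapsule over control, was -0.03 over the 31 genes and 0.00 over all genes, with 15 above 0, where 50.5% of all genes lay, and 16 below it. The range ran from -0.20 for Birc5 to 0.15 for Mki67. In TMM-normalised CPM, 4 genes were higher in nanocapsule libraries without overlap between the groups, where 19.7% of all genes were. On the lower side without overlap were 10, where 19% of all genes were. Some of these separations closed in plain CPM, as given below. Leaving out 1 library at a time moved the median between -0.13 (without Nanocapsule 2) and 0.02 (without Nanocapsule 1), and no gene of the group passed in any of these fits.

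**Figure D1:**
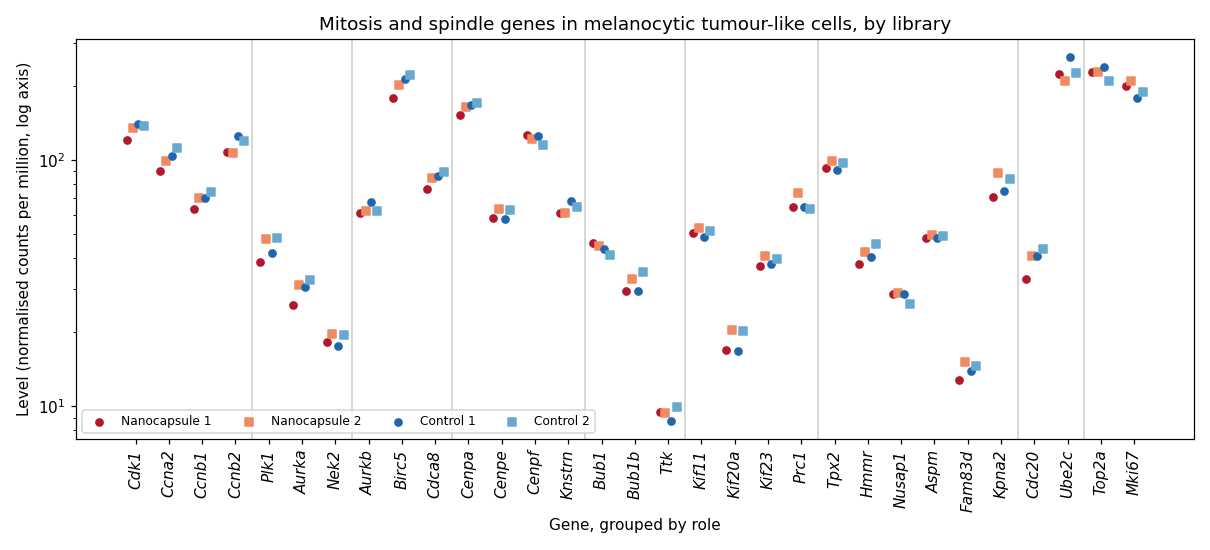
Level of each of the 31 genes in melanocytic tumour-like cells, as TMM-normalised CPM on a log axis, with 1 point per library and grey lines between groups of genes by role. Points of the 4 libraries lie close together for each gene, from Ttk near 9 CPM up to Ube2c between 209 and 262 CPM.

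The genes at the core of mitotic entry were all on the lower side in nanocapsule libraries. Ccnb2, a B-type cyclin partner of Cdk1, was at 107.8 and 106.5 CPM (TMM-normalised, as for all single genes below) in nanocapsule libraries and 124.7 and 119.7 CPM in control libraries. The groups did not overlap, and the log2 fold of -0.19 ± 0.07 (SE) had the smallest unadjusted p of the group, 0.0295, with an adjusted p of 0.643 in edgeR's test. Ccna2, cyclin A2 of S phase and G2, was at 90.7 and 99.04 CPM against 104 and 112 CPM in controls. Cdk1, the kinase itself, was at 121 and 135 CPM against 140 and 138 CPM. Neither pair of groups overlapped on this scale, though in plain CPM both pairs did. The log2 folds were -0.18 ± 0.08 and -0.12 ± 0.08 (SE), with adjusted p of 0.663 and 0.762 in edgeR's test. Ccnb1, the other B-type cyclin, had a log2 fold of -0.11 with overlapping groups.

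The chromosomal passengers, which correct attachments of chromosomes to the spindle, showed the same side. Birc5 was at 178 and 201 CPM in nanocapsule libraries and 214 and 222 CPM in control libraries, a log2 fold of -0.20 ± 0.09 (SE) with an adjusted p of 0.661 in edgeR's test. Aurkb, the kinase of the complex, and Cdca8, which encodes borealin, had log2 folds of -0.07 and -0.12. In all 3 genes both nanocapsule libraries lay below both control libraries, where 19% of the 16195 genes tested did. For Aurkb they nearly met, at 62.08 CPM in Nanocapsule 2 and 62.13 CPM in Control 2, and for Cdca8 the groups overlapped in plain CPM.

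Both genes that serve the anaphase-promoting complex were lower as well, without passing the test. Ube2c, the ubiquitin-conjugating enzyme that works with the complex, was at 223 and 209 CPM in nanocapsule libraries and 262 and 226 CPM in control libraries. Cdc20, the complex's activator in mitosis, was at 32.9 and 40.6 CPM against 40.9 and 43.5 CPM. The groups did not overlap in either gene, though Nanocapsule 2 and Control 1 differed by less than 1 CPM in Cdc20. In plain CPM the groups overlapped in Cdc20 and did not in Ube2c. The log2 folds were -0.18 ± 0.10 and -0.20 ± 0.11 (SE), with adjusted p of 0.713 for both genes in edgeR's test. Without Control 1, the Ube2c fold was -0.07, and without Nanocapsule 1, the Cdc20 fold was -0.06.

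The kinetochore and spindle genes were spread around 0. Cenpa, the histone H3 variant that marks centromeres, was at 153 and 164 CPM in nanocapsule libraries and 168 and 171 CPM in control libraries. These groups did not overlap, and the log2 fold was -0.10. In plain CPM the groups overlapped, at 150.6 and 166.1 in nanocapsule libraries and 162.1 and 176.9 in control libraries. Cenpf, a large protein of the outer kinetochore, was at 126 and 121.9 CPM against 125 and 115 CPM, a log2 fold of 0.05 with overlapping groups. Knstrn, a spindle and kinetochore adaptor, had a log2 fold of -0.12, and Cenpe, the kinetochore motor, one of 0.01.

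Among the checkpoint genes, Bub1, a kinase that recruits checkpoint proteins to kinetochores, was at 46.1 and 44.9 CPM in nanocapsule libraries and 43.6 and 41.4 CPM in control libraries, a log2 fold of 0.10 ± 0.07 (SE) with an adjusted p of 0.757 in edgeR's test. Its partners Bub1b and Ttk had log2 folds of -0.05 and 0.02. All 4 spindle motor and midzone genes lay above 0, between 0.01 and 0.11. Prc1, which bundles microtubules in the midzone, was the highest of them at 64.4 and 73.4 CPM in nanocapsule libraries and 64.4 and 63.6 CPM in control libraries. Nanocapsule 1 and Control 1 were level in Prc1, and without Nanocapsule 2 its log2 fold was 0.01 in place of 0.11.

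Tpx2, which activates Aurka on spindle microtubules, was at 92.8 and 99.6 CPM in nanocapsule libraries and 91.0 and 97.1 CPM in control libraries, a log2 fold of 0.03. The other 5 spindle assembly genes ranged from -0.10 (Hmmr) to 0.07 (Nusap1). The mitotic kinases Plk1, Aurka and Nek2 had log2 folds of -0.06, -0.15 and 0.04, all with overlapping groups.

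Genes of chromosome structure gave the highest fold of the group. Mki67, whose protein Ki-67 coats mitotic chromosomes and is a common mark of dividing cells, was at 199 and 208 CPM in nanocapsule libraries and 179 and 189 CPM in control libraries. The groups did not overlap, and its log2 fold of 0.15 ± 0.07 (SE) had an adjusted p of 0.702 in edgeR's test. In plain CPM the groups nearly met, at 196.1 in Nanocapsule 1 and 195.8 in Control 2. Top2a, the topoisomerase that untangles sister chromatids, was at 227.3 and 227.1 CPM against 239 and 209 CPM, a log2 fold of 0.02 with overlapping groups. Mki67 and Birc5, both commonly read as marks of division, lay on opposite sides of 0 in the same cells, neither past the test.

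The 2 libraries of a group often stood at opposite ends. Nanocapsule 1 was the lowest library for 14 of the 31 genes and Nanocapsule 2 the highest for 12, while Control 1 was lowest for 9 and Control 2 highest for 11. In each library, summed level also moved with cell depth. The third of tumour-like cells with the fewest UMIs held 1476 and 1903 CPM in Nanocapsule 1 and 2, and 1521 and 1533 CPM in Control 1 and 2. The third with the most UMIs held 3056 and 3090 CPM, against 3313 and 3253 CPM. The part of depth in the levels was not tested.

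Mitotic transcripts were concentrated in a minority of tumour-like cells, to a like degree in both groups. To compare cells at 1 depth, each was thinned at random to 8000 UMIs, which left out 73 and 80 shallower cells in the nanocapsule libraries and 78 and 108 in the control libraries. At least 1 UMI of the group was seen in 88.8% and 90.8% of cells in Nanocapsule 1 and 2, and in 89.0% and 91.0% in Control 1 and 2 (unthinned, 99.2% and 99.5%, against 98.2% and 98.9%). At least 20 such UMIs were seen in 31.8% (exact 95% interval 29.4 to 34.2) and 39.1% (36.1 to 42.3) of cells in the nanocapsule libraries, against 34.9% (33.2 to 36.6) and 38.5% (35.6 to 41.6) in the control libraries. The means were 35.5% ± 5.19 and 36.7% ± 2.58 (SD, n = 2 each), and the libraries of both groups interleaved. The intervals cover counting error only.

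The 10% of cells richest in these transcripts held 36.7% and 33.7% of all the group's UMIs in the nanocapsule libraries, against 34.4% and 31.5% in the control libraries. The lower 50% of cells held 8.14% and 11.1%, against 8.89% and 12.5%. The threshold of 20 UMIs cuts a continuous range, not a cell type.

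**Figure D2:**
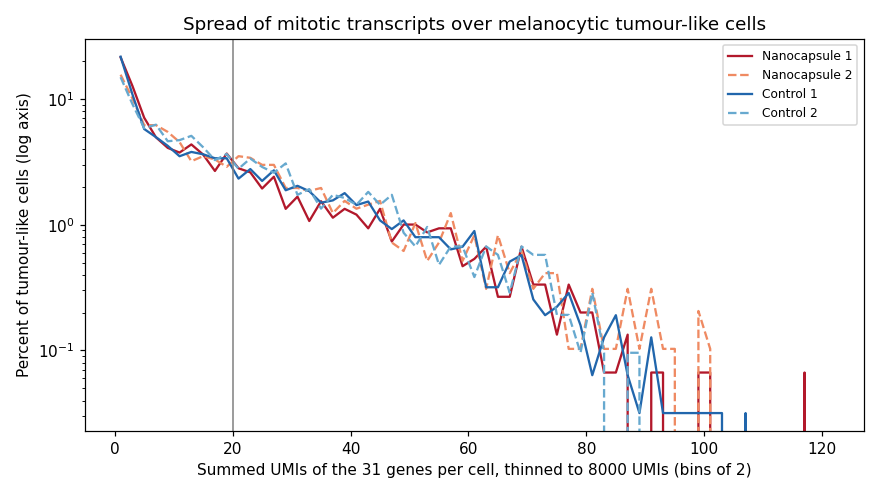
Percent of melanocytic tumour-like cells (log axis) by their summed UMIs of the 31 genes after thinning to 8000 UMIs, in bins of 2, with 1 line per library and a grey line at 20 UMIs. The 4 lines run together, and 31.8% and 39.1% of cells in the nanocapsule libraries and 34.9% and 38.5% in the control libraries lie at 20 or above.

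Gene by gene, the share of thinned tumour-like cells with at least 1 UMI ran from 5.28% for Ttk, a checkpoint kinase, in Nanocapsule 1 to 60.3% for Birc5 in Control 2. Unthinned shares ran from 21.2% to 87.9%. The nanocapsule mean was higher for 11 genes and lower for 20, by differences between -3.05 and 2.01 percentage points. The groups did not overlap for 1 of the 31 genes, where 34.8% of the 9382 genes found in at least 5% of cells on average did not. Thinned to 4000 UMIs the count was 5, where 34.2% of those genes did not overlap, and at 16000 UMIs it was 3, where 34.6% did not. The 1 gene was Ube2c, found in 47.3% and 49.95% of cells in nanocapsule libraries and 51.1% and 51.4% in control libraries. Its two-sided exact permutation p was 0.333, the smallest that 2 libraries against 2 can give, so no such test could reach 0.05.

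Within tumour-like cells the genes varied together, given here as a description across thinned cells of 1 library that share depth and class. The median Pearson r over the 465 gene pairs was 0.31, from 0.07 for Ccnb2 with Ttk to 0.63 for Cenpf with Ube2c, and 16 pairs were above 0.5. Pairs of the same role had a median r of 0.32 (44 pairs) and pairs of different roles 0.31 (421 pairs). Mki67 and Birc5 followed the summed UMIs of the other 30 most closely, with mean r of 0.6951 and 0.6946 over the 4 libraries. Birc5 was above Mki67 in every library but Nanocapsule 1. Ttk followed least, with 0.21, and was also the gene seen in the fewest thinned cells, 5.28% to 7.48% per library. The r values here and below were not adjusted for how many cells held a gene's UMIs.

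Genes differed in how far they followed 30 DNA replication and G1/S genes, which are used at S-phase entry. Top2a had the highest mean r with them, 0.47, followed by Cdk1 with 0.40 and Aurkb with 0.35. Cdc20, Knstrn and Fam83d had 0.07 each, and Cenpa and Ccnb2 0.10 each. The order of Top2a and Cdk1 above Cenpa and Ccnb2 was seen in each library.

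**Figure D3:**
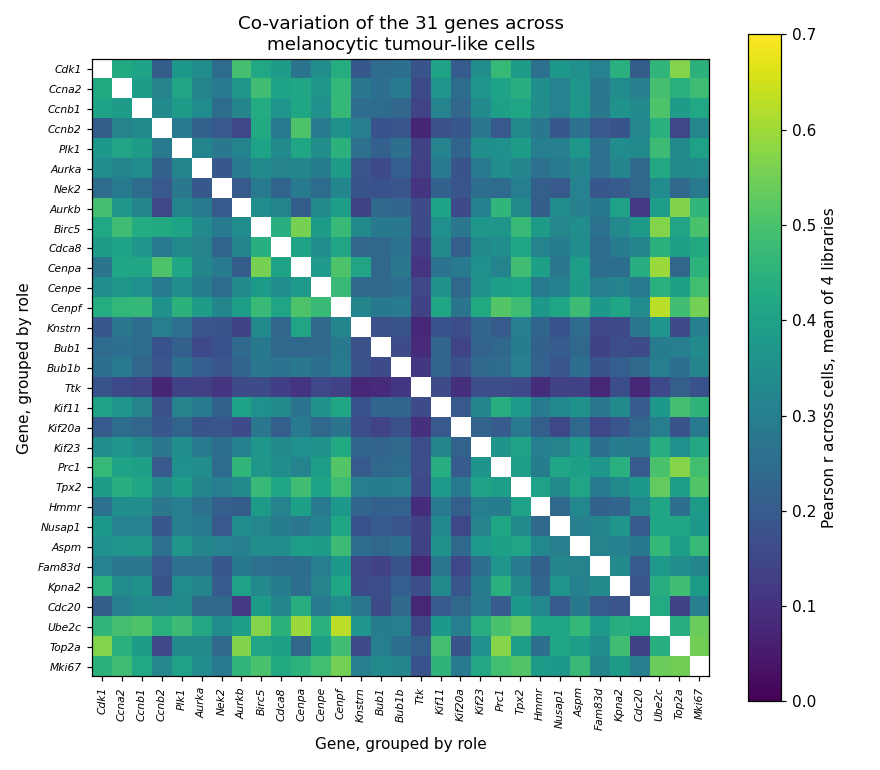
Pearson r across melanocytic tumour-like cells for each pair of the 31 genes, mean of 4 libraries, with both axes listing the genes by role and colour from 0 to 0.7. The brightest cell is Cenpf with Ube2c at 0.63, and the row of Ttk, the gene seen in the fewest thinned cells, is dark throughout.

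No gene of 3 related cell cycle lists passed in tumour-like cells either, where 0% of all genes passed. Of 62 other mitosis genes, all tested, none passed edgeR's test with Benjamini-Hochberg adjustment, 23 lay above 0 and 39 below, and the median log2 fold was -0.04. Cks1b, a small partner of the cyclin-dependent kinases, was at 238 and 224 CPM in nanocapsule libraries and 252 and 231 CPM in control libraries. Smc4, a condensin subunit, was at 166 and 171 CPM against 169 and 164 CPM.

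Of the 30 DNA replication and G1/S genes, 28 lay below 0 and 2 above, with a median of -0.08, and none passed. Dut, which clears dUTP from the nucleotide pool, was at 195 and 197 CPM in nanocapsule libraries and 227 and 234 CPM in control libraries. Rrm2, a ribonucleotide reductase subunit, was at 147 and 199 CPM against 190 and 211 CPM. Of 17 cell cycle brakes 14 were tested, and none passed, with 8 above 0, 6 below and a median of 0.06. Cdkn1a, the p53-induced inhibitor p21, was at 160 and 144 CPM in nanocapsule libraries and 175 and 118 CPM in control libraries, and Ccng1, another p53 target, at 90.9 and 74.4 CPM against 111 and 96.8 CPM.

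Macrophage-like cells carried less of these transcripts, and their libraries differed widely within each group. The summed level was 547 and 1168 CPM in Nanocapsule 1 and 2, against 1454 and 993 CPM in Control 1 and 2, with means of 857 ± 439 and 1223 ± 326 CPM (SD, n = 2 each). The log2 ratio was -0.51, and the groups overlapped. Of the 31 genes 30 were tested (Fam83d was not), and none passed edgeR's test with Benjamini-Hochberg adjustment, where 0% of 9657 genes passed. Below an unadjusted p of 0.05 stood 1 of the 30, Ube2c, lower in nanocapsule libraries, where 0.673% of all genes stood, and 0 on the higher side, where 0.891% stood. DESeq2 called none of the group and had 1 below an unadjusted p of 0.05.

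**Figure D4:**
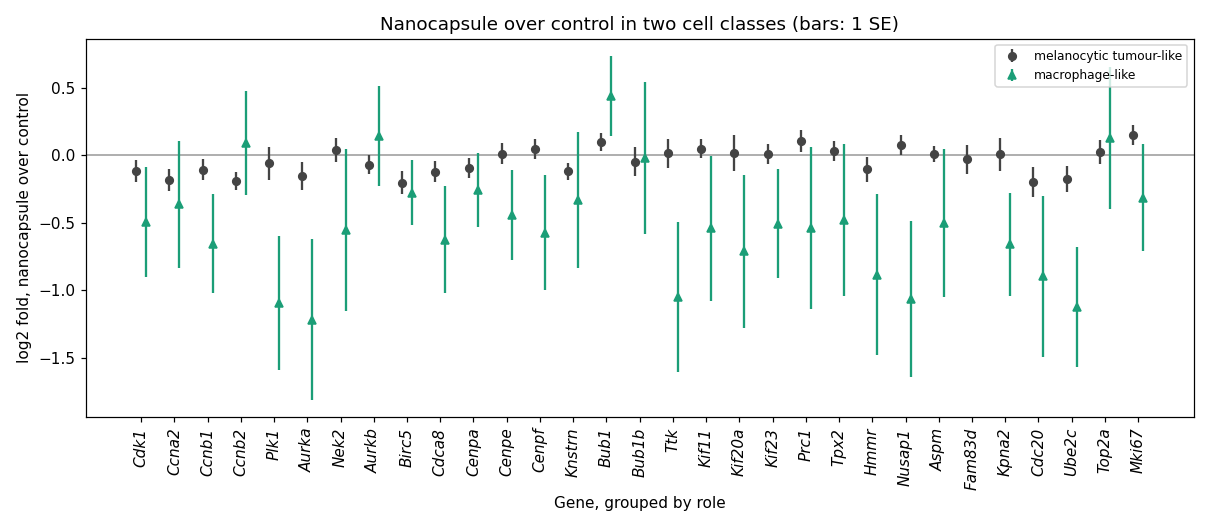
Log2 fold of each gene, nanocapsule over control, from edgeR's quasi-likelihood test in melanocytic tumour-like cells (circles, 31 genes) and macrophage-like cells (triangles, 30 genes), with bars of 1 SE. The circles stay between -0.20 and 0.15, and 26 of the 30 triangles lie below 0 with bars several times as long.

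Of the 30 tested genes 4 lay above 0, where 51.1% of all genes did, and the median was -0.52 against 0.01 over all genes. Nanocapsule 1 was the lowest library for 26 of the 30 genes and Control 1 the highest for 22. Without Nanocapsule 1 the median was -0.19, without Control 1 -0.18, without Control 2 -0.83 and without Nanocapsule 2 -1.22, so its size turned on single libraries. Without overlap, 8 genes were lower in nanocapsule libraries, where 12.4% of all genes were, and 1 was higher, where 13.3% were. The higher one was Bub1, at 20.4 and 21.97 CPM in nanocapsule libraries and 14.96 and 16.4 CPM in control libraries, chosen after its values were seen.

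Ube2c was at 36.2 and 70.3 CPM in nanocapsule libraries and 161 and 76.7 CPM in control libraries. Its log2 fold was -1.12 ± 0.45 (SE), with an unadjusted p of 0.0434 and an adjusted p of 0.9997 in edgeR's test. Without Control 1 the fold was -0.50. With no filter on low counts it passed, with an adjusted p of 0.0321 in edgeR's test, where 0.193% of 17575 genes passed.

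Mki67 was at 48.0 and 115 CPM in nanocapsule libraries and 107 and 98.98 CPM in control libraries, Cenpa at 88.8 and 95.6 CPM against 135 and 86.1 CPM, and Top2a at 42.5 and 141 CPM against 102 and 69.7 CPM. Their groups overlapped, and each fold changed sign on leaving out a library. Cenpa had a fold of -0.26 with all libraries and 0.09 without Control 1, and Mki67 -0.32 and 0.15 without Nanocapsule 1. Top2a had 0.12, and -1.01 without Nanocapsule 2 or -0.11 without Control 2.

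In 3 of the 4 libraries a few macrophage-like cells carried most of the signal. Thinned to 1500 UMIs, 2 of 90 and 14 of 120 cells in the nanocapsule libraries held at least 3 UMIs of the group, against 16 of 143 and 19 of 148 in the control libraries. Those are 2.22% and 11.7% of cells, against 11.2% and 12.8%, and they held 15.8% and 66.1% of the group's thinned UMIs, against 76.97% and 78.98%. At least 1 UMI was found in 28.9% and 40%, against 32.9% and 34.5% (unthinned, 82.2% and 77.5%, against 65.0% and 70.3%).

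Pigment transcripts of tumour cells were present in this class, at 2500 and 2240 CPM in the nanocapsule libraries and 3356 and 964 CPM in the control libraries. In macrophage-like cells with at least 3 UMIs of the group per 1500, counted at full depth, they stood at 10490 CPM (1 cell) and 3745 CPM (12 cells) in the nanocapsule libraries, against 5757 CPM (15 cells) and 198 CPM (13 cells) in the control libraries. In the other macrophage-like cells they stood at 2108 and 1775 CPM, against 2711 and 1061 CPM. The cells rich in mitotic transcripts were thus also richer in pigment transcripts in 3 of the 4 libraries, and lower in Control 2. They were also deeper in every library, with medians of 64510 (1 cell) and 43060 UMIs, against 15040 and 16400 UMIs. The other cells had medians of 11760 and 13160 UMIs, against 5930 and 9209 UMIs. The part of depth was not tested. Empty droplets of 1 to 100 UMIs, which hold free RNA, had 38.7 and 37.7 UMIs of the group per 100 pigment UMIs in nanocapsule libraries and 36.9 and 49.4 in control libraries. At that ratio the macrophage pigment UMIs would carry 177% and 72.3% of the group's UMIs, against 85.1% and 48.0%. Without the pigment-rich cells, the summed level was 289 and 840 CPM in nanocapsule libraries and 1034 and 906 CPM in control libraries, the log2 ratio was -0.78 and the median fold was -0.64. Those shares were then 11.6% and 3.96%, against 4.54% and 4.82%.

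The difference between the tumour-like and macrophage-like effects was tested as an interaction over both classes with library as a block. None of the 31 genes passed, where 0.241% of 16204 genes did, and the smallest adjusted p was 0.679 in edgeR's test with Benjamini-Hochberg adjustment. Below an unadjusted p of 0.05 stood 7 of 31, where 3.09% of all genes stood, each with the higher fold in tumour-like cells. The size of the difference turned on single libraries. Its median over the 31 genes, tumour-like minus macrophage-like, was 0.55 log2 with all libraries. It was 1.14 without Nanocapsule 2 and 0.89 without Control 2, but 0.29 without Control 1 and 0.16 without Nanocapsule 1. Without Control 2, Ube2c passed, with an adjusted p of 0.00116 in edgeR's test, where 0.425% of 16701 genes passed, in a fit where 1 control library was assumed to vary like the nanocapsule libraries.

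T-like cells varied more between libraries than any other of the 4 classes, with both extremes in the control group. The summed level was 1030 and 2453 CPM in Nanocapsule 1 and 2, against 3121 and 169 CPM in Control 1 and 2. The means were 1741 ± 1006 and 1645 ± 2087 CPM (SD, n = 2 each), and the groups overlapped. Behind them stood 290 and 1550 UMIs, against 170 and 53. Control 1 held 13 T-like cells, below the 20 that a fit needed, so no model was fitted to this class.

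**Figure D5:**
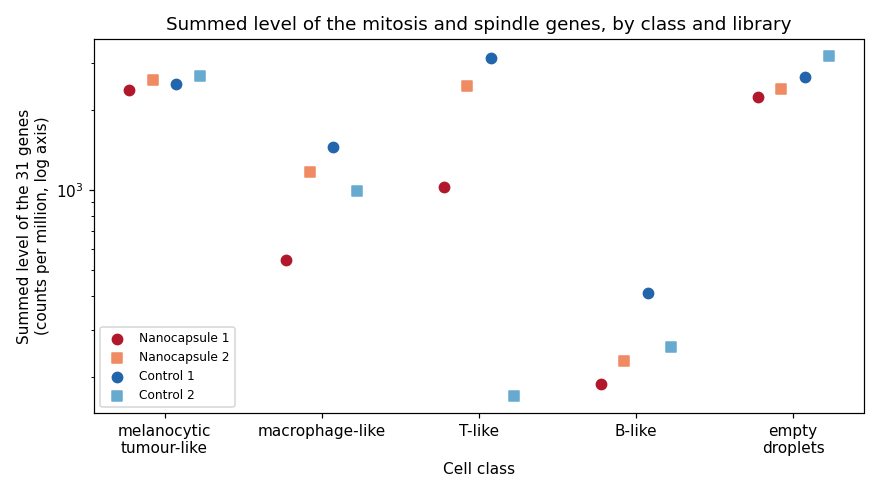
Summed level of the 31 genes (CPM, log axis) by cell class, with 1 point per library and empty droplets at the right. Tumour-like points lie between 2368 and 2667 CPM, and T-like points spread from 169 to 3121 CPM with both ends in control libraries.

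Thinned to 1500 UMIs, 2 of 37 and 8 of 49 T-like cells in the nanocapsule libraries held at least 3 UMIs of the group, against 4 of 13 and 0 of 63 in the control libraries. The 0 of 63 allows a share of up to 4.76% by the limit of 3 counts, or 5.69% by the exact 95% interval. At least 1 UMI was found in 27.0% and 46.9% of cells, against 38.5% and 17.5% (unthinned, 54.1% and 71.4%, against 53.8% and 52.4%). Counted at their full depth and scaled to 1500 UMIs, 2 and 6 cells in the nanocapsule libraries and 4 in Control 1 reached 3 UMIs, and they carried 45.5% and 82.5%, against 98.2%, of the class's mitotic UMIs.

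In these cells pigment transcripts stood at 26.3 and 35.8 CPM in the nanocapsule libraries, against 221 CPM in Control 1, and in the other T-like cells at 61.6 and 57.3 CPM, against 87.6 CPM. At the ratio of empty droplets, pigment UMIs would carry 2.13% and 0.778% of the group's UMIs in the nanocapsule libraries and 1.95% and 64.3% in the control libraries. Top2a had 47 and 148 UMIs in nanocapsule libraries and 26 and 9 in control libraries, Cenpa 43 and 145 against 14 and 8, and Mki67 41 and 128 against 21 and 3. Ube2c had 10 and 213, against 14 and 4, so its order among the genes differed between the nanocapsule libraries.

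T-like and NK-like cells were joined, after the data were seen, so that every library reached 20 cells. Of the 31 genes 15 passed the filter on low counts. None of them passed edgeR's test with Benjamini-Hochberg adjustment, where 0% of 5577 genes passed, and 3 stood below an unadjusted p of 0.05 on the higher side, where 3.89% of all genes stood, and 0 on the lower side, where 3.75% stood. DESeq2 called none, with 0 below an unadjusted p of 0.05. The 15 folds of the model ran from 0.14 to 2.29, all above 0, where 50% of all genes lay, with a median of 1.52 against 0.00 over all genes. The other 16 genes have no fold, so this says nothing of the group as a whole, and without Control 2, where 24 passed the filter, the median was -0.27. A model fold above 0 did not always mean a higher mean of the libraries. Kif23 had the fold of 0.14 with means of 20.2 CPM in nanocapsule libraries and 39.2 CPM in control libraries. The summed level of all 31 genes had means of 1528 ± 901 and 1128 ± 1295 CPM (SD, n = 2 each), a log2 ratio of 0.44. In each of the 15 the groups overlapped, while 18.4% of all genes were higher and 17.6% lower without overlap. Top2a was at 157 and 220 CPM in nanocapsule libraries and 328 and 35.4 CPM in control libraries, with a log2 fold of 0.60 that was 2.44 without Control 1 and -0.74 without Control 2. Without Control 1, Cenpa, Mki67 and Top2a passed, where 0.499% of 6618 genes passed. Without Nanocapsule 1, Kpna2 and Ube2c passed, where 0.781% of 6655 genes passed. With all libraries and no filter on low counts, Kpna2 passed, where 0.407% of 14257 genes passed. In a fit without a library, the lone library left in its group is assumed to vary like those of the other group.

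B-like cells held few mitotic transcripts, with 23 and 16 UMIs in the nanocapsule libraries and 39 and 33 in the control libraries. The summed level was 188 and 229 CPM in Nanocapsule 1 and 2, against 413 and 259 CPM in Control 1 and 2, with means of 209 ± 29.2 and 336 ± 109 CPM (SD, n = 2 each). The groups did not overlap, and the log2 ratio of -0.69 was -0.31 without Control 1. Pigment transcripts stood at 253 and 158 CPM in the nanocapsule libraries and 582 and 251 CPM in the control libraries. Control 1 was highest in both measures, but Nanocapsule 1, lowest in the summed level, was not lowest in pigment transcripts. The part of pigment transcripts was not tested. At the ratio of empty droplets the pigment UMIs would carry 52.1% and 25.9% of the group's UMIs, against 52.0% and 47.9%.

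At 1500 UMIs, 30.2% and 33.3% of B-like cells held a UMI of the group in nanocapsule libraries, against 51.0% and 34.1% in control libraries (unthinned, 41.9% and 52.4%, against 55.1% and 45.5%). Thinned to 1000 UMIs the shares were 13.95% and 33.3%, against 26.5% and 20.5%, so the difference in means was -10.8 points at 1500 UMIs and 0.15 points at 1000. Neutrophil-like cells, which do not divide, held one in 1 of 4 and 0 of 5 cells, against 1 of 3 and 6 of 17. Only Cenpa was tested in B-like cells, at 84.8 and 110 CPM in nanocapsule libraries and 151 and 120 CPM in control libraries. The groups did not overlap, where 18% of all genes were lower without overlap, and the log2 fold of -0.49 ± 0.51 (SE) had an adjusted p of 0.987 in edgeR's test with Benjamini-Hochberg adjustment, where 0.153% of 1955 genes passed on the lower side. Its unadjusted p was above 0.05, below which 2.51% of all genes stood on the higher side and 2.35% on the lower, and 49.6% of all genes had a fold above 0.

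Cenpa took a larger share of the group's UMIs in B-like than in tumour-like cells, at 34.8% and 37.5% in nanocapsule libraries and 28.2% and 36.4% in control libraries. In tumour-like cells it took 6.36% and 6.41%, against 6.50% and 6.63%, and in empty droplets 4.74% and 4.45%, against 5.33% and 4.32%. The B-like shares rest on 8 and 6 UMIs of Cenpa, against 11 and 12. The larger share was not particular to B-like cells. In NK-like cells it was 45.5% and 33.3%, against 66.7% and 20%, on 5 and 7 UMIs, against 4 and 6. In T-like cells it was 14.8% and 9.36%, against 8.24% and 15.1%, and in macrophage-like cells 14.97% and 8.33%, against 9.46% and 8.74%. Neutrophil-like cells held 0 UMIs of Cenpa.

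Of the 31 genes, 9 are overlapped on the opposite strand by another counted gene (Ccna2, Nek2, Cdca8, Knstrn, Kif20a, Prc1, Nusap1, Cdc20 and Ube2c) and 0 on the same strand. Whether counting used the strand is not given in the sources used here, so reads of such partners may not be told apart.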

How the data were processed

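The authors deposited UMI counts per gene and barcode for 4 libraries. Per the submitters' processing notes, Cell Ranger 2.1.1 and mm10 were used, while the deposited matrix header names Cell Ranger 4. A barcode was kept as a cell from 1500 UMIs and 200 genes upward, unless over 20% of its UMIs were mitochondrial, and the cells were clustered (scanpy 1.11.5, leidenalg 0.10.2). Scrublet marked 13 cells (0.136%), too few to have worked, and none was removed. UMIs were summed per library and class and tested over all genes with edgeR 4.0.16 (TMM, filterByExpr, robust quasi-likelihood, R 4.3.3), with Benjamini-Hochberg adjustment at 0.05, in classes with at least 20 cells in each library. DESeq2 1.42.0 was an alternative. Scripts were tested on simulated data. The tumour class was named at a lower marker limit (a median log2 fold of 1.25) than the other classes (3), set after the clusters were seen. Library numbers are not said to pair the samples. The members and lists were chosen with earlier results of these data known. Values per library are given for the 10 members with the highest mean in tumour-like cells, the 3 largest and 3 smallest folds at a mean of at least 20 CPM, the 4 highest in each other class, and the 2 highest of each other list. Promoters of Ccna2, Tpx2, Aurkb and Kif20a were not analysed here.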

Additional observations from a re-analysis of the deposited data

How the results depend on the processing

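Of 97 summary values from alternatives that kept every library, 88 were counted as held, and of 166 folds of named genes 161 were. A fold held where neither its sign nor its passing of the test changed. A summed level or share held where it shifted by less than the SD within groups. That SD was wide, at 2.19 log2 for the summed level of T-like cells and 1.75 for T- and NK-like cells. Some alternatives returned the main fit unchanged. Keeping cell cycle genes out of the clustering did so for T- and NK-like cells (median fold 1.52). The counts are therefore no measure of robustness. Without the filter on low counts, 1 gene passed in macrophage-like cells (Ube2c, log2 fold -1.14) and 1 in T- and NK-like cells. The difference in the share of cells with a UMI of the group, nanocapsule minus control, moved with thinning. In macrophage-like cells it was 0.78 points at 1500 UMIs and -7.12 at 1000, in T-like cells 9.02 and -15.2 at 3000, in B-like cells -10.8 and 0.15 at 1000, and in T- and NK-like cells 2.67, 6.68 at 1000 and -5.49 at 3000. Genes whose share did not overlap in tumour-like cells numbered 1 at 8000 UMIs, 5 at 4000 and 3 at 16000. The Top2a fold turned to -0.0041 in tumour-like cells of 20000 to 100000 UMIs, and in macrophage-like cells to -0.042 with the replicate block, -0.45 with a cell minimum set by order of magnitude and -0.018 without pigment-rich cells. With 1 library left out, the log2 ratio of the summed level ran from -0.12 to 0.01 in tumour-like, -1.16 to -0.067 in macrophage-like, -0.84 to 3.36 in T-like, -0.99 to -0.31 in B-like and -0.42 to 2.85 in T- and NK-like cells. The median fold ran from -0.13 to 0.021 in tumour-like, -1.22 to -0.18 in macrophage-like and -0.27 to 3.47 in T- and NK-like cells. Genes passing ran from 0 to 3 in T- and NK-like cells and from 0 to 1 for the interaction, and the B-like difference in cells with 3 or more UMIs from -6.12 to -2.27 points. Folds that changed sign ran, in tumour-like cells, from -0.072 to 0.12 for Top2a, -0.016 to 0.11 for Cenpf and -0.022 to 0.079 for Tpx2. In macrophage-like cells they ran from -0.54 to 0.091 for Cenpa, -1.10 to 0.15 for Mki67 and -1.01 to 0.71 for Top2a. In T- and NK-like cells they ran from -0.74 to 2.44 for Top2a, -0.15 to 2.34 for Cenpa, -0.59 to 3.11 for Mki67 and -0.64 to 4.10 for Ube2c. The cause was not tested in any of these. Same-numbered libraries deviated together (r 0.49), but the labels do not pair them. With the replicate block 0 of the 31 genes passed in tumour-like cells, while 115 of all genes did, against 0 without it. The smallest adjusted p of the 31 in edgeR's test was lower with the block, 0.113 against 0.643. Not fitted, for want of cells, were T-like cells, T-like, B-like and T- and NK-like cells at the order-of-magnitude minimum, and T- and NK-like cells without pigment-rich cells, where summed levels alone gave log2 ratios of 1.37 in T-like cells at that minimum and 0.38 in T- and NK-like cells without pigment-rich cells. Thinning B-like cells to 3000 UMIs left none in Control 1, so it gave no comparison. Depth and 13 to 63 T-like cells per library limit what can be seen in the immune classes.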
